A study of Mus musculus with 3 samples.

Results

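The genes described here are 10 genes of the contractile actin cytoskeleton and of the response to mechanical tension in mouse embryonic fibroblasts (MEF): Acta2, Tagln, Cnn1, Myl9, Tpm1, Tpm2, Vcl, Ctgf, Cyr61 and Ankrd1. The rule named them and used no ratio, although earlier results of these data were known when they were chosen. On the array 16 of the 55681 gene probes of the array measured them, so they make up 10 of 35200 gene names. The MEF were primary cells grown from minced mid-gestation C57BL/6 embryos after the head, legs and internal organs had been taken out. The 3 conditions were MEF left without BP, called control, MEF given BP at 10 µg/ml, called BP10, and MEF given it at 40 µg/ml, called BP40, all in medium with serum. Total RNA was measured. BP is n-butylidenephthalide, a compound of the medicinal plant Angelica sinensis that was dissolved in DMSO. The labels record no treatment for the control, whereas the study's text names DMSO for it, and the time of treatment is not given in the sources used here.

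Each condition was measured on 1 Agilent array in 1 colour, 3 arrays in all. There was therefore no replicate spread, no test could be made, and each ratio compares 2 arrays. The arrays lay on 1 slide, but the control array was scanned in another session than the BP10 and BP40 arrays, so that for a ratio over the control the effect of BP and that of the scan cannot be told apart. Levels are log2 of the deposited intensity minus the 75th percentile of the gene spots of the same array. A level can be set against the same probe on another array but not against another probe. A gene was called at a ratio of at least 2-fold (a log2 ratio of 1 or more, either way) if 1 or both of the arrays compared showed the probe well above background. For the spread between probes, the log2 ratios of 2 probes to one gene were compared. Their median SD was 0.27 for BP10 against control, 0.19 for BP40 against control and 0.21 for BP40 against BP10. The corresponding SDs over the 314 genes whose 2 probes were both as bright as the members were 0.17, 0.13 and 0.12. Both probes of a gene read the same cultures, hybridizations and scans, so these SDs leave out differences between arrays and between cultures. They can also hold differences between transcripts of a gene.

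Fibroblasts pull on their surroundings through stress fibres, bundles of actin and non-muscle myosin that end in focal adhesions. Free actin monomers hold back the MRTF coactivators, and when actin polymerises these enter the nucleus and join serum response factor (SRF) at CArG boxes, which are present in many genes of smooth muscle type. Tension also lets the coactivators YAP and TAZ bind TEAD factors, whose best known targets include Ctgf, Cyr61 and Ankrd1. Cultured fibroblasts on stiff plastic are known to use both routes.

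All 10 markers of fibroblasts, the cells the label names, were well above background on the 3 arrays, among them Vim, Thy1, Pdgfra and the collagen gene Col6a1. So were 81.7%, 68.3% and 69.1% of all gene spots on the control, BP10 and BP40 arrays, so this count alone says little about cell type. The log2 of their summed levels was 9.57 in control, 9.14 in BP10 and 9.10 in BP40. In such a sum the brightest probes weigh most. Lum, which encodes the matrix proteoglycan lumican, was called lower at BP10 (log2 ratio −3.21) and at BP40 (−2.22). Dcn, which encodes decorin, was called lower at BP10 (−1.06). That is 2 of the 10 at BP10 and 1 at BP40, beside 10.6% and 9.21% of all genes called lower. Of 6 endothelial markers, 4 were above background on all arrays and Cdh5 and Tie1 on none. The log2 of the summed levels was 3.06, 2.71 and 3.09 on the control, BP10 and BP40 arrays. Of 6 epithelial markers, 4 were above background on all arrays and Epcam and Cdh1 on none, with 0.95, 0.13 and 0.14 by the same measure. By the probe that stood for each gene, Cldn4 was called lower at BP10 (−1.46), and Krt5 (−1.05) and Esrp1 (−1.02) at BP40. That is 1 and 2 of 6, beside 10.6% and 9.21% of all genes called lower. The 6 macrophage markers were above background on all arrays, and the log2 of their summed levels was 5.01, 4.68 and 4.85. Lyz2 was called higher at BP10 (1.09) and at BP40 (1.25), 1 of the 6, beside 2.62% and 2.56% of all genes called higher. By 1 probe for each gene, Ptprc, Itgam, Csf1r, Emr1 and Cd68 had ratios of −0.31, −0.45, −0.31, −0.46 and 0.12 at BP10. At BP40 their ratios were −0.49, −0.43, 0.29, −0.19 and 0.24.

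The sequences behind the measurements are shown first. The first set is the probes of Tpm1, since they did not give the same ratios. Each probe is 60 bases long on the minus strand of chromosome 9 (mm9, as the scanner files give it). They are listed from the 5′ end of the gene to its 3′ end, and the first 30 bases of each are printed, with no part in capitals.
A_55_P2078680, chr9:66880274-66880333, named in the file for transcript variant 5: ggaagaacagttaagaataatggatcagac
A_55_P2187038, chr9:66875796-66875855, transcript variant 1: ccttagggccaggcacagactgctttctat
A_55_P2187043, chr9:66875782-66875841, transcript variant 1: acagactgctttctattgtacagaagcaat
A_55_P2187053, chr9:66872131-66872190, transcript variant 9: gagggctgcctgcctggcccgtgtttccct
A_55_P2032192, chr9:66871166-66871225, transcript variant 2: gaaaaccttagtatgcaccagatgctggat
The probes for transcript variant 1 share 46 of their bases, so they are not independent readings. The first and the last probe start 9108 bases apart. No annotation of the mm9 build was used here, so the exon or untranslated region that each probe reads is not given.

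The second set, shown as background to the genes, is the stretch before the start of transcription, which holds the motifs that SRF and the TEAD factors are known to bind. RefSeq windows (GRCm38.p6, 250 bases before to 50 after the start) were present for 8 of the 10 genes, all but Tagln and Ctgf. A CArG box was searched as CC, then 6 letters of A or T, then GG. The TEAD motif was searched as GGAATG, and both were searched on both strands. The lines below run from 10 bases before the first match to the base before the start, with the matches in capitals.
Myl9, chr2:156775293-156775463, plus strand: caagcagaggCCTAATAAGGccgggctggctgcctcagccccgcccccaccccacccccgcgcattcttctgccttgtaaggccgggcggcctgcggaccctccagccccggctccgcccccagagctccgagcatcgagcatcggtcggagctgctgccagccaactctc
Vcl, chr14:20929161-20929397, plus strand: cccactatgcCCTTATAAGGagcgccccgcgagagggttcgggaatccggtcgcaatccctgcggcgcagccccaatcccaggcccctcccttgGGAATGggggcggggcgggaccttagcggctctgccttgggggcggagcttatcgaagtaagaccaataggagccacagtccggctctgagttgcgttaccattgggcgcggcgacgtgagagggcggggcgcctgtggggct
Cyr61, chr3:145649986-145650098, minus strand: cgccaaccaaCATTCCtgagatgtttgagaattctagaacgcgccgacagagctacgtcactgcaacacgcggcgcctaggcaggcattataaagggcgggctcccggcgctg
Ankrd1, chr19:36119845-36120064, minus strand: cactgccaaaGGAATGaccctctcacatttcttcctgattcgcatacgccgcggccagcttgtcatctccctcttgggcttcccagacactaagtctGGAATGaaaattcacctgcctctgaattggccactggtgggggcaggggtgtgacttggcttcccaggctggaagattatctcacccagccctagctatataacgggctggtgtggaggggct
Tpm1, chr9:67049214-67049279, minus strand: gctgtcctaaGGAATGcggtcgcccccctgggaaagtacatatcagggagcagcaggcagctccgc
A strict CArG box was found in 2 of the 8 windows, those of Myl9 and Vcl, and in 1.63% of all 32851 windows. GGAATG was found in 5 of the 8, those of Acta2, Cyr61, Ankrd1, Tpm1 and Vcl, against 14.7% of all windows. In Cyr61 it lay on the other strand and reads CATTCC in the line above, while Ankrd1 held it at 2 places. TATAAA was found in 1 of the 8, that of Cyr61, and in 13.6% of all windows. A match only says that these letters lie in the window, and no binding was measured.

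Against the control, none of the 10 genes passed 2-fold at either dose, whereas 13.2% of all genes were called at BP10 and 11.8% at BP40. Dim genes make up much of these shares: among the 3710 genes at least as bright as Ankrd1, the dimmest of the members by the 1 probe that stood for each gene, 1.56% were called at BP10 and 1.51% at BP40. By the same measure, 5 of the 16 member probes, 4 of Tpm1 and 1 of Vcl, were dimmer than these genes. Between the doses 1 member, Tpm1, was called, lower at BP40, against 3.64% of all genes called in either direction and 1.75% called lower. Among the genes as bright, 1.4% were called in either direction and 0.243% (9 genes) were called lower at BP40 than at BP10. All 16 member probes were well above background on the 3 arrays, and no gene spot was saturated.

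The direction of a ratio depends on the scaling more at BP40 than at BP10. When the arrays were scaled on the 8 E1A spike-in probes, which read RNA that does not come from the cells, the median ratio of all genes shifted by −0.87 at BP40 against control and by −0.92 at BP40 against BP10, and by 0.05 at BP10 against control. All 16 member probes were then lower at BP40 than in the control, where 12 of 16 were higher on the 75th percentile. The 8 spike-in probes did not give one value. Before any scaling their log2 ratios ran from −0.40 to 0.47 in BP40 against control and from 0.21 to 0.77 in BP40 against BP10. The size of the shift therefore depends on the spike-in probe used. Directions given for BP40 below are therefore relative to the other genes of the array and not to the spike-ins. On the 75th percentile, 11 of 16 probes lay above the median of the genes as bright at BP40 and 16 of 16 at BP10. Spike-in scaling shifts all genes of an array alike and so cannot alter these counts, whereas quantile normalization gave 9 of 16 at BP40.

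The genes Acta2, Tagln, Cnn1 and Myl9 differed little between the arrays on the 75th percentile scaling. Acta2 encodes smooth muscle α-actin, the actin of stress fibres in activated fibroblasts. Its probe is printed 10 times on each array, and its log2 level was 8.24 in control, 8.14 in BP10 and 8.36 in BP40, with an SD between spots of 0.08, 0.08 and 0.07. The lowest BP40 spot was at 8.19, below the highest control spot and the highest BP10 spot, both at 8.32, so the spots of the arrays overlapped. The log2 ratios were −0.09 for BP10 and 0.13 for BP40 against control, and both changed sign under other scalings.

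Tagln encodes transgelin (SM22α), an actin-bundling protein and a standard SRF target. Its log2 level was 8.13 in control, 8.18 in BP10 and 8.22 in BP40, ratios of 0.05 and 0.10. Cnn1, which encodes calponin 1, an actin-binding inhibitor of myosin ATPase, had log2 levels of 6.97, 7.09 and 7.09. Both its ratios against the control were 0.13, and the BP40 and BP10 arrays differed by 0.00. These differences are smaller than the median SD between 2 probes of one gene on this scaling, but at BP10 Tagln reached 0.32 and Cnn1 0.39 under other normalizations, which is above it. That SD does not measure the spread between arrays, so neither reading says whether a difference exceeds it.

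Myl9 encodes the regulatory light chain of smooth muscle and non-muscle myosin, which is phosphorylated to start contraction. Its log2 level was 7.93 in control, 7.82 in BP10 and 7.82 in BP40, and its ratio was −0.11 at each dose. At BP10 this sign turned under quantile normalization and cyclic loess, where the highest value was 0.14. The Acta2, Tagln, Cnn1 and Myl9 ratios against the control all lay between −0.11 and 0.13 on the 75th percentile, but at BP10 they reached 0.17, 0.32, 0.39 and 0.14 in the highest of the 7 settings on array-wide scaling. The stretch before Myl9 holds one of the CArG boxes shown above, and that of Acta2 held no strict CArG box in its window.

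**Figure D1:**
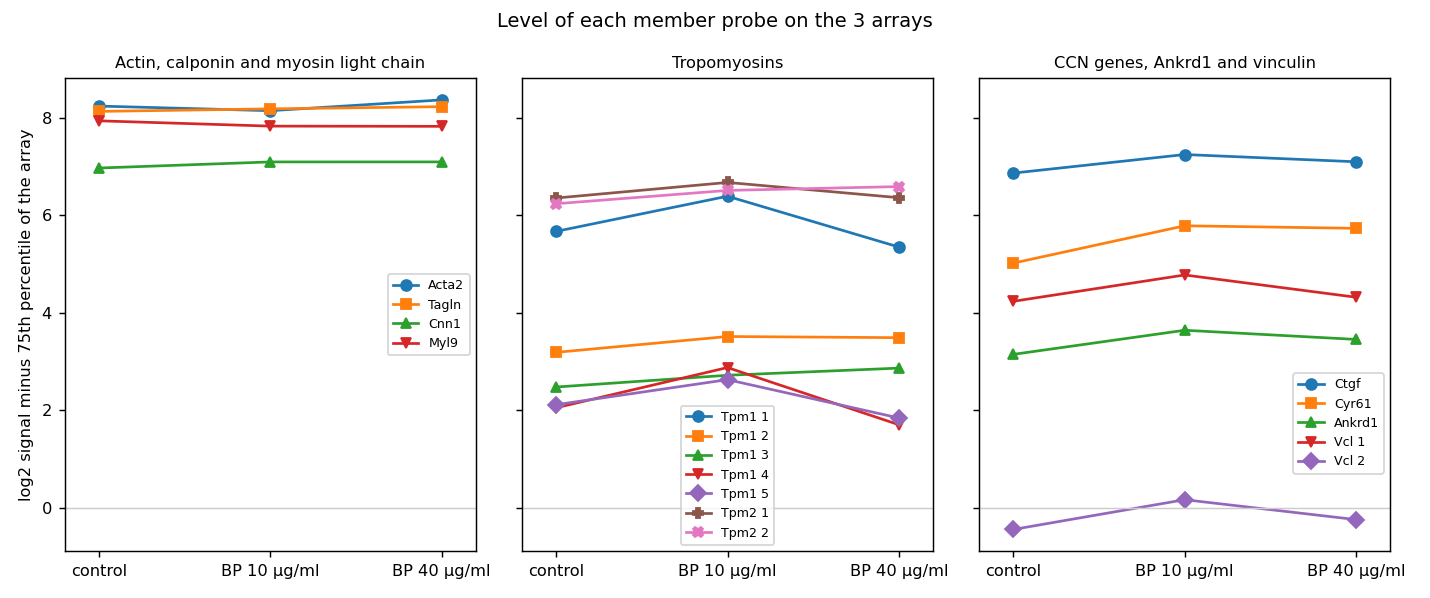
Log2 signal of each of the 16 member probes minus the 75th percentile of its array (vertical axis) on the control, BP10 and BP40 arrays (horizontal axis, 1 array per condition, so no error bars), with lines joining the readings of one probe and probes of one gene numbered from the brightest. Acta2, Tagln, Cnn1 and Myl9 stayed nearly level, Cyr61 went from 5.02 to 5.78 and 5.73, and Tpm1 1, 4 and 5 were highest at BP10 and lowest at BP40.

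The tension targets Cyr61, Ctgf and Ankrd1 were higher than the control at both doses, by less than 2-fold. Cyr61 (Ccn1) encodes a secreted matrix protein that binds integrins. Its log2 level was 5.02 in control, 5.78 in BP10 and 5.73 in BP40. The ratios of 0.76 and 0.71, that is 1.70-fold and 1.64-fold, were the highest among the 10 genes at both doses on the 75th percentile when 1 probe stood for each gene, whereas under quantile normalization Tpm1 was higher at BP10, 0.96 against 0.93. Of the 3710 genes as bright, 0.97% had a ratio as high as Cyr61 at BP10 and 2.56% at BP40. Over the 7 settings on array-wide scaling its ratio ranged from 0.69 to 0.93 at BP10 and from 0.63 to 0.72 at BP40, and on the spike-in scaling its BP40 ratio was −0.16.

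Ctgf (Ccn2) encodes connective tissue growth factor, a matrix protein that acts with TGF-beta in fibrosis. Its log2 level was 6.86 in control, 7.24 in BP10 and 7.09 in BP40, ratios of 0.38 and 0.23. Ankrd1 encodes a nuclear and sarcomeric ankyrin repeat protein that is induced by stretch. Its log2 level was 3.15 in control, 3.64 in BP10 and 3.45 in BP40, ratios of 0.49 and 0.31. For both genes the BP40 array lay between the control and BP10 arrays, and BP40 differed from BP10 by −0.15 for Ctgf and −0.19 for Ankrd1. Of the genes as bright, 4.99% had a ratio as high as Ctgf and 2.91% as high as Ankrd1 at BP10, and 27.1% and 18.6% at BP40.

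Vcl encodes vinculin, which links talin and actin in focal adhesions that bear load. The 2 Vcl probes gave like ratios. A_52_P190973 had log2 levels of 4.24, 4.77 and 4.32, and A_66_P133244 had −0.44, 0.17 and −0.24, on the control, BP10 and BP40 arrays. At BP10 they were higher than the control by 0.54 and 0.61, and at BP40 by 0.08 and 0.20. Between the doses they were lower at BP40 by 0.46 and 0.41 on the log2 scale, short of 2-fold. Of the genes as bright, 2.32% had a BP10 ratio as high as the brighter Vcl probe, and 3.07% were as low in BP40 against BP10.

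Tropomyosins are coiled-coil proteins that lie along actin filaments and govern which myosins and severing proteins reach them, and Tpm1 makes many isoforms by alternative promoters and splicing. Tpm1 was the member with the widest differences between the arrays. Its brightest probe, A_55_P2032192, had a log2 level of 5.67 in control, 6.39 in BP10 and 5.35 in BP40. It was thus higher than the control by 0.72 at BP10 and lower by 0.32 at BP40, and at BP40 it was lower than at BP10 by 1.04, a ratio of 0.486. In BP40 against BP10, 0.19% of the genes as bright had a ratio as low.

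The other 4 Tpm1 probes fell into 2 kinds. A_55_P2078680, which is the most 5′, had log2 levels of 2.05, 2.88 and 1.71 and differed by −1.17 between BP40 and BP10. A_55_P2187053 had 2.12, 2.63 and 1.85 and differed by −0.79. The overlapping pair did not: A_55_P2187038 had levels of 3.19, 3.51 and 3.49, a difference of −0.02, and A_55_P2187043 had 2.48, 2.72 and 2.87, a difference of 0.15. The 3 probes at both ends of the covered stretch were therefore lowest on the BP40 array, and the pair between them was within 0.15 of BP10 there on this scaling, A_55_P2187038 a little lower and A_55_P2187043 a little higher.

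The 5 log2 ratios of Tpm1 in BP40 against BP10 spanned 1.32. Of 12 genes with 5 or more probes as bright, Tpm1 counted, 2 had a span at least this wide, and the median span was 0.69. Over the 7 settings on array-wide scaling the ratio of A_55_P2032192 ranged from −1.34 to −1.04, that of A_55_P2078680 from −1.29 to −1.16 and that of A_55_P2187053 from −0.90 to −0.79. The pair for transcript variant 1 ranged from −0.20 to 0.04 and from 0.03 to 0.15. When the median of the 5 probes stood for the gene, Tpm1 was not called and no member was. On the spike-in scaling the 5 ratios were −1.96, −0.94, −0.77, −2.09 and −1.71 in the order of brightness, each moved by the same amount.

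**Figure D2:**
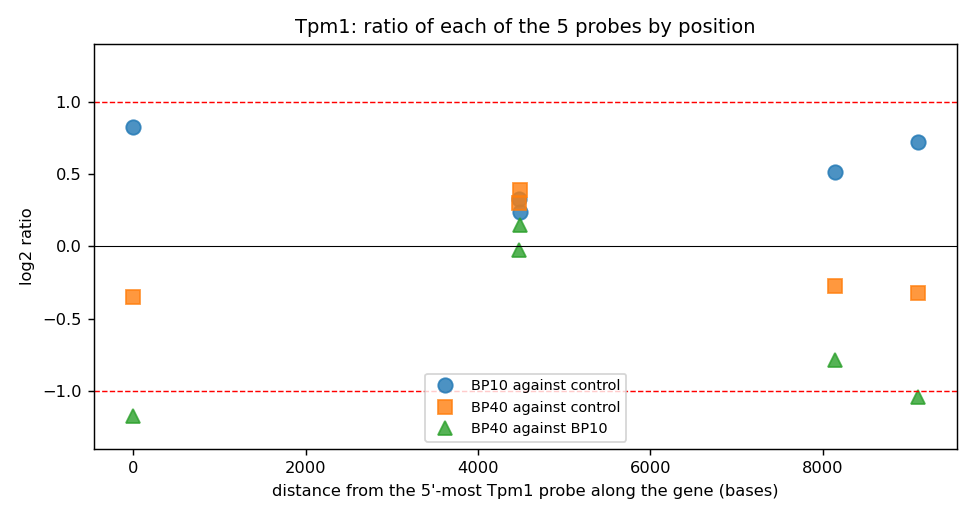
Log2 ratio (vertical axis, 75th percentile scaling, dashed lines at 2-fold) of each of the 5 Tpm1 probes by its distance in bases from the most 5′ probe (horizontal axis), for BP10 against control (circles), BP40 against control (squares) and BP40 against BP10 (triangles). The triangles lie at −1.17, −0.79 and −1.04 for the outer probes and at −0.02 and 0.15 for the overlapping pair in the middle.

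Tpm2 encodes β-tropomyosin. Its probe A_52_P315976 had log2 levels of 6.35 in control, 6.67 in BP10 and 6.36 in BP40, and A_55_P2121408 had 6.23, 6.51 and 6.59. The probes were higher at BP10 by 0.32 and 0.27. At BP40 they differed, with ratios of 0.01 and 0.35 against the control. By their brightest probes the tropomyosin genes Tpm3 and Tpm4, whose values were known when they were chosen for mention, had log2 ratios of −0.49 and −0.24 at BP10 and −0.17 and −0.10 at BP40, and 0.32 and 0.14 in BP40 against BP10. In BP40 against BP10 they thus had the opposite sign to Tpm1 A_55_P2032192 on the 75th percentile scaling, and neither passed 2-fold in any comparison. The other Tpm3 probes gave −0.65 and −0.25 there, the same sign as Tpm1 A_55_P2032192, but both were dim. Their log2 levels on BP10 and BP40 were −1.99 and −2.65 for one and −4.78 and −5.02 for the other. The dimmer probe was well above background on only 2 of the arrays.

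As a list of 1 probe per gene, the members had a median log2 ratio of 0.35 at BP10, 0.11 at BP40 and −0.10 in BP40 against BP10. The median of all genes was −0.24, −0.12 and 0.07, and that of the genes as bright was −0.16, 0.06 and 0.23. At BP10 8 of the 10 genes were higher than the control and 2 lower, with the same 8 to 2 split at BP40 on this scaling, and 3 were higher and 7 lower in BP40 against BP10. All 16 probes lay above the median of the genes as bright at BP10 and none in BP40 against BP10. Of the settings that can alter this, quantile normalization, cyclic loess and normexp, each left all 16 above at BP10 and 1 above in BP40 against BP10. The BP10 array enters both of these comparisons with opposite sign, and with 1 array a departure of that array cannot be told apart from the dose.

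**Figure D3:**
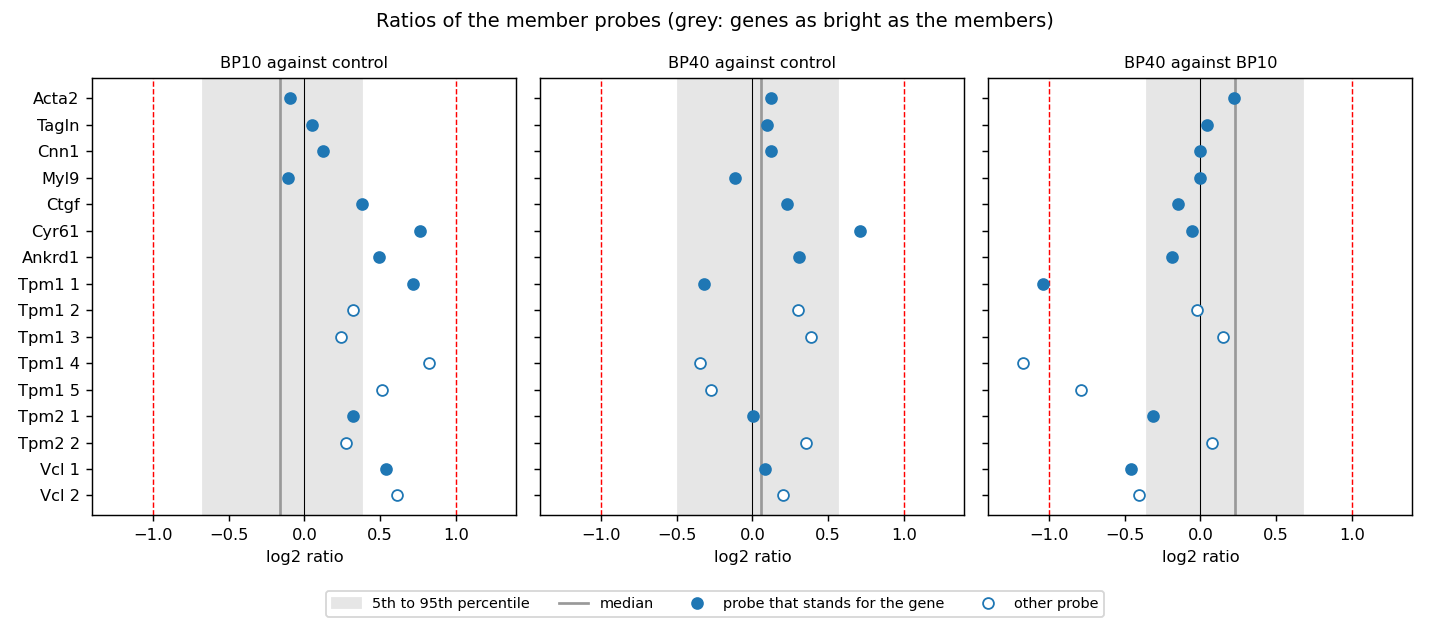
Log2 ratio (horizontal axis, 75th percentile scaling) of each member probe (rows, filled points for the probe that stands for the gene) in the 3 comparisons, with the median and the 5th to 95th percentile of the 3710 genes as bright in grey and dashed lines at 2-fold. Cyr61 lies right of the grey band at both doses, and Tpm1 1 and 4 are the points left of the dashed line in BP40 against BP10.

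The wider pathway was read from 7 lists of 121 genes, of which 120 had a value on the 3 arrays and 119 were above background on all of them. Tead4 had no value, since its spot was an outlier on 1 array. At BP10 1 of the 120 genes (0.833%) was called, at BP40 8 (6.67%), and in BP40 against BP10 4 (3.33%), beside the 13.2%, 11.8% and 3.64% of all genes. Dim genes make up much of those shares, and among the 3710 genes as bright as the members they were 1.56%, 1.51% and 1.4%. Some of the list genes were dimmer than these 3710. Every one of the list calls was on the lower side, where 10.6%, 9.21% and 1.75% of all genes were called. Of the genes as bright as the members, 1.11%, 0.62% and 0.243% were called lower. The median log2 ratio over the 120 genes was −0.03, −0.07 and −0.02.

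None of the central regulators passed 2-fold, beside 13.2%, 11.8% and 3.64% of all genes called at BP10, at BP40 and in BP40 against BP10. Among the genes as bright as the members, 1.56%, 1.51% and 1.4% were called. Probes of one regulator differed. Srf itself, with levels of 2.66, 2.78 and 2.92 by its brighter probe, had ratios of 0.13 and 0.27 by that probe and 0.17 and 0.08 by the other. Mkl1, which encodes the coactivator MRTF-A, had ratios of −0.17 and 0.10 by its brighter probe and 0.39 and 0.54 by the other, so that its direction at BP10 depended on the probe. Yap1 had ratios of −0.38 and 0.05, and Wwtr1, which encodes TAZ, had 0.14 and −0.25. Rhoa, the GTPase that drives stress fibre assembly, had −0.13 and −0.11 by its brighter probe and −0.71 and −0.45 by the other. Actb, cytoplasmic β-actin, had −0.08 and 0.14 by its brighter probe and −0.30 and 0.12 by the other.

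Of the 32 genes for SRF cofactors and actin-regulated contractile proteins, none was called against the control, beside 13.2% of all genes at BP10 and 11.8% at BP40. In BP40 against BP10 Myh11 was called lower, 1 of 32 (3.1%), beside 1.75% of all genes called lower. Myh11 encodes smooth muscle myosin heavy chain, and its log2 level was −1.22 in control, −0.67 in BP10 and −2.01 in BP40. The difference of −1.34 between the doses had the same pattern over the 3 arrays as Tpm1 A_55_P2032192, highest on BP10 and lowest on BP40. None of the 16 focal adhesion genes or the 18 measured Hippo pathway genes was called in any comparison. Beside this stand 13.2%, 11.8% and 3.64% of all genes, and 1.56%, 1.51% and 1.4% of the genes as bright as the members. The median ratios of the focal adhesion and Hippo lists lay between −0.13 and 0.13.

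Of 21 further YAP and TAZ target genes, 2 (9.52%) were called, both lower at BP40 against control, a share near the 9.21% of all genes called lower there. Igfbp3, which encodes a binding protein of insulin-like growth factors, had log2 levels of 0.05, −0.51 and −1.11 and a ratio of −1.17. Nt5e, the ecto-nucleotidase CD73, had −3.63, −4.09 and −4.65 and a ratio of −1.03. The median of the list was −0.03 at BP10 and −0.13 at BP40. Its genes spanned −0.86 to 0.92 at BP10 and −1.17 to 0.73 at BP40, ranges that hold the ratios of Cyr61, Ctgf and Ankrd1.

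The other CCN genes are relatives of Cyr61 and Ctgf that encode secreted matrix proteins. Nov (Ccn3) had log2 levels of 0.40, 0.18 and −0.91, and Wisp2 (Ccn5), which lacks the C-terminal domain of the family, had 3.46, 3.57 and 2.34. Both were called lower at BP40, by −1.31 and −1.12 against the control and by −1.09 and −1.23 against BP10. They are 2 of 4 genes in each comparison, beside 9.21% and 1.75% of all genes called lower. Wisp1 (Ccn4), with ratios of 0.00 and −0.33, was not called, and Wisp3 was not above background on any array. Within this family, Cyr61 and Ctgf were thus higher at BP40 and Nov and Wisp2 lower on the 75th percentile scaling, all in the same pair of arrays.

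Of 14 genes for TGF-beta and tension targets of the matrix, 1 was called lower at BP10 and 4 at BP40 against control, and 1 in BP40 against BP10. These are 7.14%, 28.6% and 7.14% of the list, beside 10.6%, 9.21% and 1.75% of all genes called lower. Tgfbi, which encodes a TGF-beta-induced adhesion protein, had log2 levels of 4.46, 2.91 and 3.30 and was called at both doses, with ratios of −1.56 and −1.16. Col3a1, the chain of type III collagen, had levels of 6.57, 5.81 and 5.34 and a BP40 ratio of −1.23. Postn, periostin, had 6.51, 5.80 and 5.47 and a BP40 ratio of −1.04. Both were lower on the BP10 array too, by 0.76 and 0.72, without passing 2-fold.

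Eln, which encodes elastin, differed from these in that its control and BP10 levels were alike. Its levels were −1.29, −1.25 and −2.38, and it was called lower at BP40 against control (−1.09) and against BP10 (−1.13). Not every matrix gene of the list was lower at BP40: Col1a2, a chain of type I collagen, had ratios of −0.31 and 0.09. It was chosen for mention after its values were seen.

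**Figure D4:**
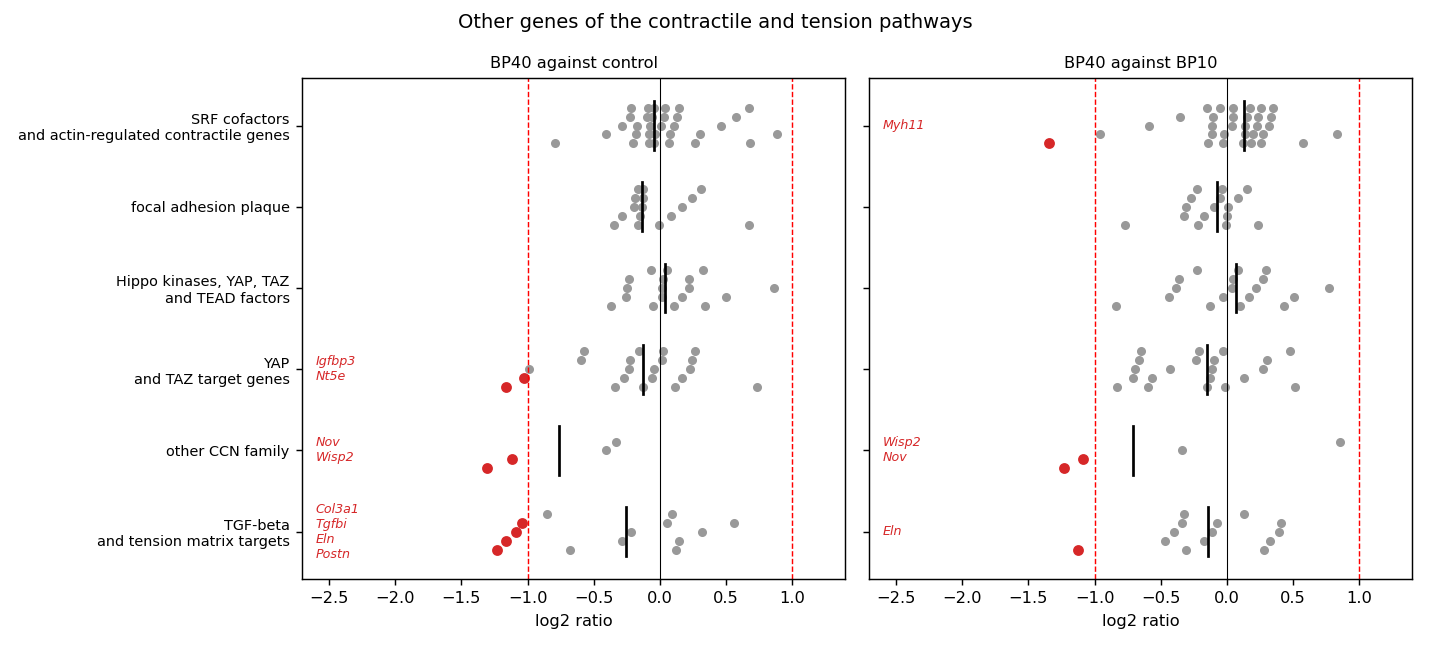
Log2 ratio (horizontal axis, 75th percentile scaling, dashed lines at 2-fold) of each gene of 6 of the 7 pathway lists (rows, 1 point per gene, black bar the list's median) for BP40 against control and BP40 against BP10. Called genes are red and named at the left of their row; all of them lie on the lower side, 8 in the left panel and 4 in the right.

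Some markers of muscle cells were lower at BP40 than at BP10, as Tpm1 was, and others were higher. Of 9 vascular smooth muscle markers, 8 were above background on all arrays, Casq2 and Rgs5 were called higher at BP10, and Myh11, Casq2 and Rgs5 were called lower in BP40 against BP10. Casq2 was not well above background at BP40, so its log2 ratio there, −1.89, is a bound. The log2 level of Rgs5 was −2.90 in control, −1.45 in BP10 and −3.42 in BP40. That of Casq2 was −4.25, −3.19 and −5.50, so both genes were dim. Called higher at BP10 were thus 2 of 9, beside 2.62% of all genes. Called lower in BP40 against BP10 were 3 of 9, beside 1.75% of all genes. Synpo2 and Lmod1 were higher at BP40 than at BP10 by 0.83 and 0.34 without being called. The log2 of the summed levels of the list was 6.75, 6.86 and 6.71, most of it from Actg2, which alone was at 6.52, 6.62 and 6.48. Of 10 skeletal and cardiac muscle markers, 7 were above background on all arrays and Myf5 on none. Actc1 and Tnnt2 were called lower in BP40 against BP10, by −1.49 and −1.52, which is 2 of 10, beside 1.75% of all genes. Acta1 differed by 0.14 there and Tnnt1 by 0.45. The log2 of the summed levels of that list was 4.06, 4.09 and 4.14, most of it from Acta1, which alone was at 3.87, 3.86 and 4.01. Neither sum therefore says how the dimmer markers differed. The part of other muscle-type cells in the Tpm1, Vcl and Myh11 values was not tested, and in RNA from whole cultures fewer cells of a type and less RNA per cell cannot be told apart.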

How the data were processed

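RNA of control, BP10 and BP40 MEF was hybridized to 3 Agilent mouse arrays, 1 for each. What the authors deposited is scanner output, where Feature Extraction 10.5.1.1 had subtracted the background from each spot's intensity and detrended it, with no scaling across arrays. The series table equals these intensities in 100% of spots, within a relative tolerance of 0.0001, and 0 columns were left unmapped. From the intensity, log2 was taken and the 75th percentile of the 59305 gene spots subtracted on each array, which was 1765 on control, 1431 on BP10 and 1237 on BP40. Spots well above background made up 81.7%, 68.3% and 69.1%. Spots of one probe were averaged without outlier spots, and 26425 probes were named through RefSeq accessions, the others by the file's name. A gene was represented by its brightest probe among those detected above background most often. The number of arrays limits the precision.

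Called genes passed 2-fold as described in the text. There was no test, p-value or SD between cultures. Named were all 10 members with every probe, the pathway list genes called in any comparison, and Srf, Mkl1, Yap1, Wwtr1, Rhoa and Actb; the genes nearest to a member called against the control were to be added, but no member was. One of the pathway lists enters the totals but is not reported here on its own. The members and the lists were chosen with earlier results of these data known. Alternatives were quantile normalization, cyclic loess, normexp with an offset of 50, other percentile bases, the series table, the median of a gene's probes, thresholds of 1.5-fold and 3-fold, and filters on dim probes. Scaling on the 8 E1A spike-in probes was chosen after seeing the data. The rule for calls was tested on simulated ratios. Python 3.11.15, numpy 2.4.6, pandas 2.3.3 and R 4.3.3 with limma 3.58.1 were used. Promoter sequences came from RefSeq (GRCm38.p6) and probe sequences from the scanner files (mm9 coordinates).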

Additional observations from a re-analysis of the deposited data

How the results depend on the processing

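No paired analysis was possible because no condition was measured more than once. Of 96 summary values recomputed, 74 stayed as reported within the probe spread or 1.5 times the count, and 22 moved. Although 0 were labelled reversed, the median member ratio for BP40 against control changed sign on the spike-in scaling, from 0.11 to −0.76. Scaling on the E1A spike-ins moved most: the median member ratio was −0.76 for BP40 against control and −1.02 for BP40 against BP10, with 1 and 5 members called and 48 and 53 pathway list genes. The spike-in probes themselves had a median ratio of 0.78 and 0.86 after 75th percentile scaling. Quantile normalization and cyclic loess gave −0.34 and −0.33 for the median member ratio in BP40 against BP10, and 2 pathway list genes called at BP10 each. Normexp left 5 list genes called at BP40 against control. With the median of a gene's probes, 0 members were called in BP40 against BP10. At 1.5-fold, 2 members were called at BP10 and 1 at BP40 against control, and 17, 20 and 17 list genes in the 3 comparisons. At 3-fold, 0 members and 0 list genes were called in the comparisons where any had been. Without a filter on dim probes, 2 list genes were called at BP10. Of the 336 member probe ratios recomputed, 284 stayed within the probe spread and 52 moved, 32 of them on the spike-in scaling. The 48 ratios and the summary values from the series table, which equals the scanner values, could not move. With the spike-in scaling left out and the series table counted, 10 of the 48 probe ratios took both signs over the 7 settings. All of these were of Acta2, Tagln, Cnn1, Myl9, Tpm2 and Tpm1 A_55_P2187038. On the spike-in scaling, all 16 member probes were lower at BP40 than in the control and than at BP10. The cause of these shifts was not tested.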
